A study of Mus musculus with 6 samples.

Results

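The Hedgehog genes described here are 9 named members of the pathway, out of 18193 genes with a probe set on the array: the ligand Shh, the receptors and coreceptors Ptch1, Smo, Gas1, Cdon and Boc, the inhibitor Hhip, and the transcription factors Gli1 and Gli2. Every probe set whose platform annotation gives 1 gene symbol equal to a member was read, which gave 23 probe sets. Of these, 19 passed a filter on dim signals (a mean over all 6 arrays that exceeded the 40th percentile) and were tested, at least 1 for each of the 9 genes, and 4 were too dim and are given by their values.

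The RNA was from the bladders of male mice, strain FVB/N, at postnatal day 2 (Theiler stage 27) that carried a pair of transgenes, SMGA/EGFP (green reporter, smooth muscle gamma actin promoter) and SMAA/EYFP (yellow reporter, smooth muscle alpha actin promoter). The mice were bred by mating SMAA/EYFP to SMGA/EGFP animals, and the labels assign the cells to detrusor, which is the bladder's muscle. Cells that had EGFP but no EYFP (EGFP+EYFP-, here single-positive, 3 arrays) were compared with cells that had both reporters (EGFP+EYFP+, here double-positive, 3 arrays), so all cells studied were sorted as EGFP positive and no cells without a reporter were measured. Samples were not pooled, but the labels do not tell whether arrays of 1 group are from different animals. A p-value here therefore weighs a difference against the spread of these samples alone, and that spread may be technical.

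Hedgehog ligands are secreted proteins that act on neighbouring cells. In the absence of ligand the receptor Ptch1 holds the signal transducer Smo inactive, and binding of ligand, helped by the coreceptors Gas1, Cdon and Boc, releases Smo and lets Gli transcription factors activate target genes. Ptch1, Hhip and Gli1 are themselves targets of the pathway, and Ptch1 and Hhip bind the ligand and restrain its spread. In the developing bladder Shh is made by the urothelium, the epithelial lining, and the surrounding mesenchyme, from which the muscle forms, responds to it.

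The genes behind the reporters were read first, because every direction below rests on the reporter states given in the titles. Actg2, the gene of smooth muscle gamma actin, had a log2 fold change of -2.54 (SE 0.23, adjusted p = 0.00101 in limma), and Acta2 did not rise on any of its probe sets, although the double-positive cells were sorted for a reporter driven by the Acta2 promoter. The brightest Acta2 probe set had a log2 fold change of -0.07 (adjusted p = 0.931), the next -4.31 (adjusted p = 0.000483) and the dimmest -3.07 (adjusted p = 0.0765). The brightest one ranked from 11 to 117 on the arrays, among the brightest signals, where a difference can be compressed. Its suffix, _s, marks sequence shared between transcripts. The platform annotation gives it the symbol Acta2 alone, and whether other transcripts add to its signal was not tested. Of 14 smooth muscle markers tested, 10 fell in the double-positive arrays, against 3.3% of all genes tested by their brightest probe set. The Acta2 values do not follow the EYFP states in the titles. Both groups were sorted as EGFP positive, and how the falls of Actg2 and the other muscle markers relate to those states was not tested. Whether the labels of the groups were exchanged was not tested. An exchange would turn every direction given here, and single-positive and double-positive mean the arrays so labelled throughout. Median signal was 147 to 200 on the 6 arrays, and the Actb control signal at the 3' end over that at the 5' end, a sign of RNA length, was 3.23 to 5.97 in the single-positive arrays and 2.78 to 8.02 in the double-positive arrays, the highest value being that of double-positive array 3.

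In the double-positive arrays the target genes Ptch1, Hhip and Gli1 rose, while the ligand Shh and the coreceptor Gas1 fell. Among the 19 tested probe sets, 5 passed as higher (3 of Hhip, 1 each of Ptch1 and Gli1), 3 passed as lower (1 of Shh and 2 of Gas1) and 11 did not pass. Of all 27022 probe sets tested, 3.42% passed, 1.01% as higher and 2.42% as lower, at a limma adjusted p below 0.05. For 13 of the 19 there was no overlap between the groups, 9 of them higher and 4 lower, against 18.7% of all probe sets tested (8.57% higher and 10.1% lower). Of the 19, 4 had a mean log2 signal under the filter level (6.82) in 1 group and passed the filter only through the other, which favours a difference: Shh 1436869_at, Ptch1 1450824_at and 1439663_at, and Hhip 1437933_at. The median log2 fold change was 0.35 over the 19 and 0.02 over all probe sets tested. Members were chosen with earlier results of these data known, so these shares and medians are descriptions. The signal is an intensity in arbitrary units, a fold change divides double-positive by single-positive, and its log2 was taken after adding 25.042 to each signal, so that changes of dim probe sets come out too small.

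**Figure D1:**
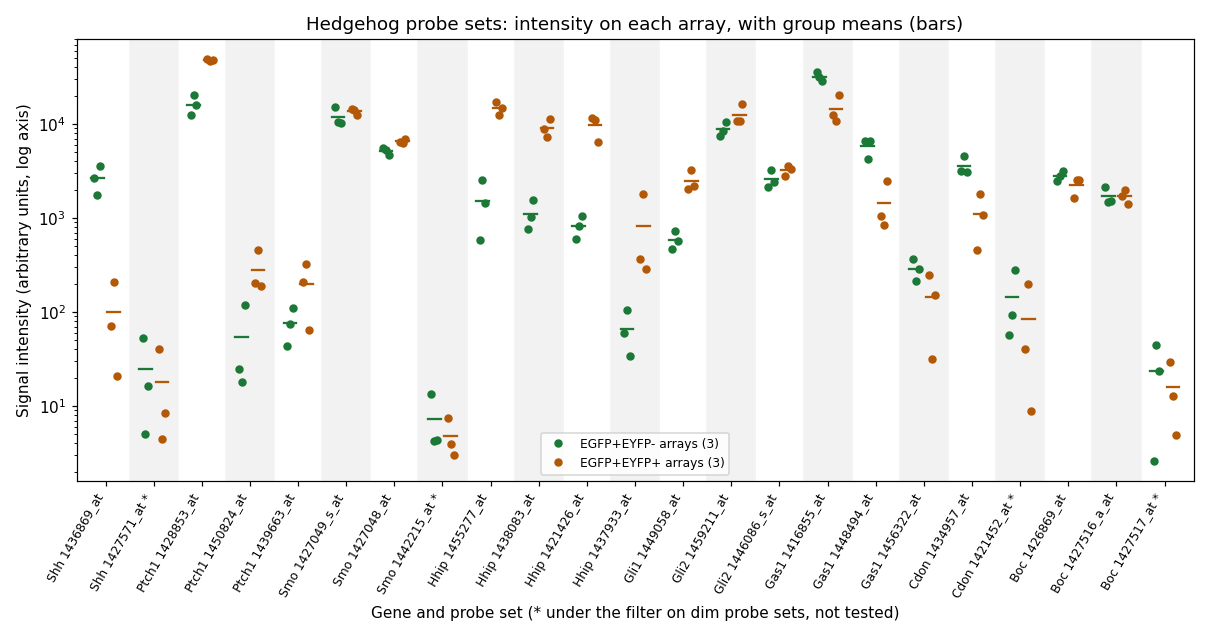
Signal intensity (arbitrary units, log axis) of the 23 Hedgehog probe sets on each of the 3 EGFP+EYFP- and 3 EGFP+EYFP+ arrays, with bars at the group means. The brightest probe sets of Ptch1, Hhip and Gli1 lie higher on all 3 EGFP+EYFP+ arrays, those of Shh, Gas1 and Cdon lie lower, and the 4 probe sets marked with an asterisk were not tested.

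The upstream sequences of members that moved are shown because Ptch1 and Hhip rose together and are targets of Gli factors, with Gas1, which fell, beside them. Each window holds 250 bases before and 50 bases after a transcription start (RefSeq, GRCm38.p6), read 5′ to 3′ on the gene's strand, at chr13:63565686-63565985 (minus strand) for Ptch1, chr8:80057959-80058258 (minus strand) for Hhip and chr13:60177486-60177785 (minus strand) for Gas1. Capitals mark the core of the Gli binding motif, CCACCC or its reverse complement GGGTGG.
Ptch1: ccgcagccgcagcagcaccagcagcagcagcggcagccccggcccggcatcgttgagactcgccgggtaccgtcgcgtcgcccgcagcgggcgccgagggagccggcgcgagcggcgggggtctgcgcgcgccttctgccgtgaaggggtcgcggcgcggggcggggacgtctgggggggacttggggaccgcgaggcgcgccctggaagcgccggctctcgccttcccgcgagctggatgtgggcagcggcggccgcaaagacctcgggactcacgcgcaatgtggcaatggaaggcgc
Hhip: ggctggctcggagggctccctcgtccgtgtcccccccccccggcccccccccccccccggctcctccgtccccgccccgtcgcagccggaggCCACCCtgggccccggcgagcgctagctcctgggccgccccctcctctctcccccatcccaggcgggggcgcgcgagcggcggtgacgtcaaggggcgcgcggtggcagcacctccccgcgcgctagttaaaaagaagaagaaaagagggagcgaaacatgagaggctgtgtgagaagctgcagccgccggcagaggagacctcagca
Gas1: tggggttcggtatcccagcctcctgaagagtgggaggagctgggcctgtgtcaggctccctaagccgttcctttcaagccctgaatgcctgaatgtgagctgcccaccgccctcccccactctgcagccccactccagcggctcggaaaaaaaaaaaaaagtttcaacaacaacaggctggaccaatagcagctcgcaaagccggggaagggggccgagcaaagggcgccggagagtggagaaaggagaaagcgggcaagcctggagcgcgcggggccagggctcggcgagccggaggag

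RefSeq windows were matched for 6 members (Ptch1, Smo, Hhip, Gli2, Gas1 and Cdon). The full Gli consensus GACCACCCA, or its reverse complement TGGGTGGTC, which contains the core, was found in 0 of these 6 and in 0.253% of all 32851 windows. The core was found in 3 of the 6 (Gli2, Smo and Hhip) and in 31.5% of all windows. The Hhip match began 158 bases before the start, the Smo match 162 bases before, and the 2 Gli2 matches 205 and 192 bases before. A match is a run of letters and not a measured binding site, and a window without these letters says nothing about binding elsewhere near the gene.

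The ligand Shh fell in the double-positive arrays. Its brighter probe set (1436869_at) gave 2680, 1776 and 3578 in the single-positive arrays and 71.1, 210 and 21.1 in the double-positive arrays. All 3 double-positive values lay far below all 3 single-positive values, and double-positive array 2 was the highest of its group. The means were 2678 ± 901 and 101 ± 98.1 (SD, n = 3 each), a log2 fold change of -4.68 (SE 0.59, adjusted p = 0.00360 in limma). The log2 fold change was between -5.29 and -3.90 over 17 alternatives, all past the threshold. The mean log2 signal of the double-positive arrays, 6.66, was under the level of the dim filter (6.82), so the size of the fold rests on the offset. The other Shh probe set (1427571_at) was dim on every array, from 4.41 to 52.3, with overlapping groups, and was not tested.

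Markers of the urothelium, the source of Shh in the bladder, were read beside it, and the median log2 fold change of those tested was -1.73. Over all genes tested by their brightest probe set, 3.3% passed as lower. Of 19 urothelium markers tested, 7 fell, 0 rose and 12 did not pass, and the summed signal of the 20 on the array was 30353 to 49613 in single-positive and 5935 to 11015 in double-positive arrays. Perp, which serves desmosomes, had -3.60 on the log2 scale (SE 0.26, adjusted p = 0.000483), and Krt15, a basal keratin, had -3.36 (SE 0.45). The double-positive mean log2 signal of Krt15, 5.29, was under the filter level, so the filter favoured its fall. Krt8, the brightest of the list, had -2.63 (SE 0.38). Upk3a, Upk1b, Cdh1 and Krt19 also fell, with -2.75, -3.17, -3.21 and -2.11 (adjusted p = 0.00608, 0.00622, 0.00995 and 0.0424 in limma). Krt18, Krt7, Foxa1, Grhl3 and Upk2 did not pass, but were lower in the double-positive arrays with groups that did not overlap. Krt5, Upk1a and Elf3 did not pass, with overlapping groups and log2 fold changes of -0.67, -0.30 and -0.09. The list was not absent from the single-positive cells, although they were sorted as EGFP positive: 0 of its 20 markers had a mean below the filter level there, and 4 did in the double-positive arrays. In bulk RNA, fewer cells of a type and less RNA per cell cannot be told apart, and the part of these markers in the Shh result was not tested.

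Ptch1, the receptor that binds the ligand and that the pathway induces, rose. Its bright probe set (1428853_at) gave 12407, 20182 and 15788 in the single-positive arrays and 49314, 46865 and 47894 in the double-positive arrays. The double-positive values lay close together, with an SD of 0.04 on the log2 scale against 0.35 in the single-positive arrays, and the groups were well apart. Means were 16126 ± 3899 and 48024 ± 1230.0 (SD, n = 3 each), 2.98-fold higher, with a log2 fold change of 1.60 (SE 0.18, 95% interval 1.19 to 2.02, adjusted p = 0.00228 in limma). The highest rank of this probe set was 82 out of 45037 on an array, among the brightest signals, where a difference can be compressed.

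The 2 other Ptch1 probe sets were dim and did not pass. The first (1450824_at) gave 24.9, 18.2 and 118 against 202, 454 and 191. All 3 double-positive values were the higher ones, with a log2 fold change of 2.08 (SE 0.58, adjusted p = 0.110). The second (1439663_at) gave 43.5, 74.5 and 110 against 208, 321 and 64.4. Here double-positive array 3 fell inside the single-positive range, and the log2 fold change was 0.99 (SE 0.58, adjusted p = 0.539). Both had a single-positive mean log2 signal under the filter level, 6.08 and 6.61, so the filter itself favoured an upward value and they add nothing to the bright probe set.

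Smo, the transducer that Ptch1 restrains, did not pass on any probe set. Probe set 1427049_s_at, whose suffix marks sequence shared between transcripts, gave 15251, 10518 and 10155 in single-positive and 14638, 14277 and 12558 in double-positive arrays, and single-positive array 1 was the highest of all 6. Its log2 fold change was 0.23 (95% interval -0.23 to 0.68, adjusted p = 0.735 in limma). Probe set 1427048_at gave 5524, 5352 and 4681 against 6514, 6364 and 6873. These groups did not overlap, but the log2 fold change was only 0.35 (95% interval -0.09 to 0.78, adjusted p = 0.512). A rise of up to 0.78 on the log2 scale lies within these intervals. The third probe set (1442215_at) ranged from 3.03 to 13.5 and was not tested.

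Among the coreceptors, which present ligand to Ptch1, Gas1 fell, Cdon was lower without passing and Boc did not separate the groups. Gas1 is a lipid-anchored surface protein, and its brightest probe set (1416855_at) gave 35439, 31745 and 28864 in single-positive and 12428, 10823 and 20495 in double-positive arrays. Double-positive array 3 was the highest of its group and still below every single-positive array. The log2 fold change was -1.18 (SE 0.24, adjusted p = 0.0278 in limma). Probe set 1448494_at gave 6556, 4289 and 6677 against 1049, 843 and 2500. It kept the same order of the double-positive arrays, with a log2 fold change of -2.11 (SE 0.41, adjusted p = 0.0248). The dim probe set 1456322_at had a log2 fold change of -1.13 (SE 0.60, adjusted p = 0.483) with overlapping groups, from 213 to 369 against 32.0 to 250.

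The Gas1 calls depended on which arrays were kept. Adjusted p was between 0.0716 and 0.113 for 1416855_at, and between 0.0597 and 0.116 for 1448494_at, in the 5 fits that left out a single-positive array, double-positive array 1 or double-positive array 2. Without double-positive array 3, which had the highest Actb ratio, they had log2 fold changes of -1.46 and -2.57 with adjusted p of 0.00347 and 0.00401. Both also missed the threshold with median centring and without a variance trend. The direction was lower in each of these fits.

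Cdon, an immunoglobulin-type membrane coreceptor, gave 3148, 4576 and 3125 in single-positive and 452, 1782 and 1085 in double-positive arrays on its brighter probe set (1434957_at). The groups did not overlap, and the double-positive mean was 3.27-fold lower. The log2 fold change of -1.86 (SE 0.46, adjusted p = 0.0692 in limma) missed the threshold. It passed in 5 of 17 alternatives: with 1 probe set per gene (adjusted p = 0.0350), with a stricter filter (0.0375), with array weights (0.0120), with the replicate block (0.0342) and without double-positive array 2, where it was -2.30 (adjusted p = 0.0304). The second Cdon probe set (1421452_at) was dim, from 8.77 to 281 over all arrays, with overlapping groups.

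Boc, a coreceptor related to Cdon, gave 2493, 2783 and 3194 against 1623, 2541 and 2530 on probe set 1426869_at. Its log2 fold change was -0.36 (95% interval -0.98 to 0.27, adjusted p = 0.684 in limma). Probe set 1427516_a_at had means of 1711 ± 363 and 1711 ± 286 (SD, n = 3 each) and a log2 fold change of 0.01 (95% interval -0.65 to 0.66, adjusted p = 0.996). The sign of this last value turned in 4 of 16 alternatives. The third Boc probe set (1427517_at) ranged from 2.63 to 45.0 and was not tested.

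Hhip, a membrane and secreted inhibitor that binds the ligand, had the largest rise of the members. Probe set 1421426_at gave 605, 818 and 1053 in single-positive and 11720, 11062 and 6490 in double-positive arrays, 11.8-fold higher in the mean, with a log2 fold change of 3.51 (SE 0.32, adjusted p = 0.00105 in limma). Probe set 1438083_at gave 762, 1022 and 1543 against 8825, 7254 and 11406 (log2 fold change 3.05, SE 0.31, adjusted p = 0.00153). Probe set 1455277_at, the brightest, gave 578, 2516 and 1464 against 16985, 12510 and 14785 (log2 fold change 3.48, SE 0.46, adjusted p = 0.00424). On each of these 3 probe sets the lowest double-positive value was well above the highest single-positive value. They did not rank the arrays alike: double-positive array 3 was lowest on 1421426_at and highest on 1438083_at.

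The fourth Hhip probe set (1437933_at) was dim and did not pass. It gave 60.1, 106 and 33.7 against 366, 1819 and 290, so that the groups did not overlap but double-positive array 2 stood far above the others. Its single-positive mean log2 signal, 6.44, was under the filter level, so it was tested only because of its double-positive signal. The log2 fold change was 2.81 (SE 0.69, adjusted p = 0.0648). This probe set did not pass in 12 of 15 alternatives, with limma adjusted p up to 0.212. Among the 3 that passed, the fit without double-positive array 3 gave 3.29 (adjusted p = 0.0454). The 3 calls of Hhip held in every alternative in which they were tested, with log2 fold changes between 2.82 and 3.95.

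Gli1, the transcription factor whose own gene is switched on by the pathway, had 1 probe set (1449058_at). It gave 469, 723 and 566 in single-positive and 2014, 3270 and 2214 in double-positive arrays. The groups did not overlap, and means were 586 ± 128 and 2499 ± 675 (SD, n = 3 each), 4.27-fold higher, with a log2 fold change of 2.04 (SE 0.33, adjusted p = 0.0109 in limma). Without single-positive array 3 the value was 2.02 and missed the threshold (adjusted p = 0.0528).

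Gli2, a Gli factor that transmits the signal, did not pass. Probe set 1459211_at gave 7535, 8524 and 10555 against 10821, 10735 and 16371, with groups that narrowly failed to overlap and a log2 fold change of 0.49 (95% interval -0.02 to 1.01, adjusted p = 0.392 in limma). Probe set 1446086_s_at gave 2134, 3225 and 2414 against 2778, 3549 and 3329, with overlapping groups and a log2 fold change of 0.32 (95% interval -0.26 to 0.91, adjusted p = 0.699).

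**Figure D2:**
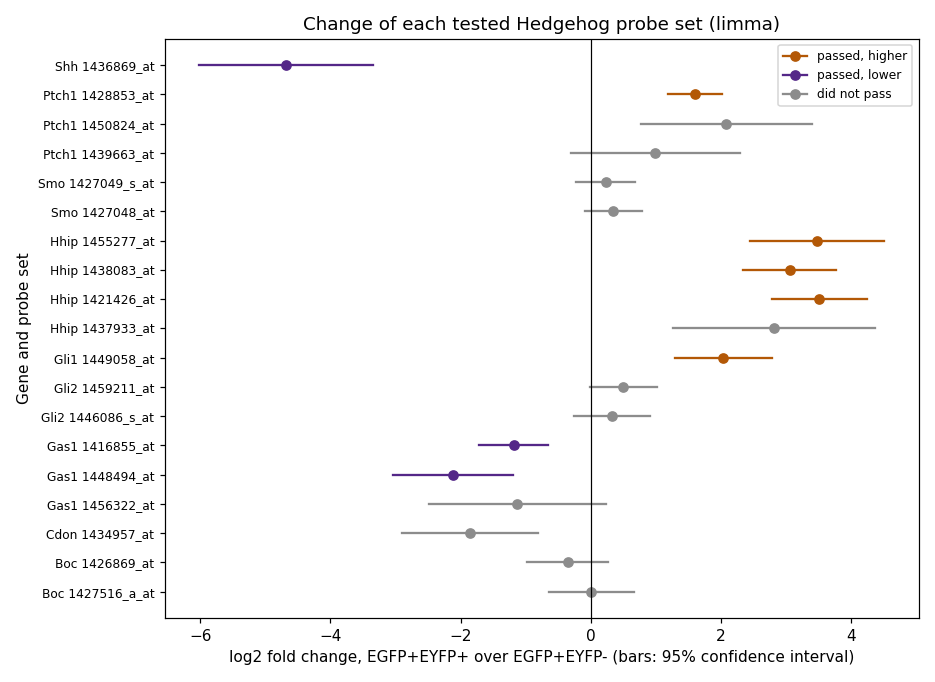
Log2 fold change, EGFP+EYFP+ over EGFP+EYFP-, of the 19 tested Hedgehog probe sets with 95% confidence intervals that are not adjusted for the number of tests. The 5 orange points passed as higher and the 3 purple points as lower, and the grey points of Ptch1 1450824_at, Hhip 1437933_at and Cdon 1434957_at have intervals away from 0 without passing.

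Other genes of the pathway were read from 3 lists, each gene by its brightest probe set. Of 48 tested, 6 rose, 2 fell and 40 did not pass. Over all 13464 genes tested in this way, 4.72% passed, 1.43% as higher and 3.3% as lower. The 6 that rose were 5 target genes and Scube3, and the 2 that fell were Dhh and Prkacb. Leaving out single-positive array 2 gave 2 rises, single-positive array 1 or 3 gave 4, and double-positive array 1 or 2 gave 3. The falls numbered 0 when any 1 array other than double-positive array 2 was left out.

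Among 12 target genes tested 5 rose, 0 fell and 7 missed the threshold, and their median log2 fold change was 0.69 against 0.02 over all genes tested. The lists were chosen with earlier results of these data known, so these counts and medians are descriptions and carry no test. Wnt4, a Wnt ligand, gave 828, 346 and 454 in single-positive and 7184, 10815 and 6126 in double-positive arrays (log2 fold change 3.88, SE 0.37, adjusted p = 0.00121 in limma), and its second probe set rose as well (3.77, adjusted p = 0.00143). Foxf2, a forkhead factor of gut and bladder mesenchyme, gave 395, 883 and 753 against 4948, 3725 and 8477 (log2 fold change 3.02, SE 0.40, adjusted p = 0.00472). On these probe sets of Wnt4 and Foxf2 the groups stood far apart. The second Foxf2 probe set was dim, from 5.48 to 59.3, with overlapping groups, and was not tested. The related factor Foxf1 gave 5917, 3993 and 5771 against 17586, 11715 and 12298 (log2 fold change 1.40, SE 0.24, adjusted p = 0.0146). Its dim second probe set had 1.74 and did not pass (adjusted p = 0.0607).

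Bmp4, a growth factor made by mesenchyme, gave 6993, 5241 and 4649 in single-positive and 20983, 22750 and 11095 in double-positive arrays (log2 fold change 1.65, SE 0.29, adjusted p = 0.0174 in limma). Double-positive array 3 was the lowest of its group and still above every single-positive array. Wnt2, another Wnt ligand, gave 9790, 8884 and 5639 against 24276, 21275 and 13582 (log2 fold change 1.28, SE 0.28, adjusted p = 0.0414). Wnt2 missed the threshold in 10 of 17 alternatives, Bmp4 in 5 of 17 and Foxf1 in 3 of 17. Wnt4 and Foxf2 passed in all 17. Ccnd1, a cyclin of the cell cycle, did not pass, with a log2 fold change of -0.93 (SE 0.25, adjusted p = 0.0894). Sfrp1, a secreted Wnt inhibitor, had -0.89 (SE 0.27, adjusted p = 0.148). Rab34, a ciliary GTPase, and Nr2f2, a nuclear receptor, had 0.64 and 0.74 without passing. The groups did not overlap in Ccnd1, Sfrp1, Rab34 and Nr2f2, as in 18.7% of all probe sets tested.

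Among 10 genes of ligands and ligand release 1 rose, 1 fell and 8 missed the threshold, and the median was 0.08. Dhh, the Hedgehog ligand of Schwann cells, gave 319, 708 and 640 in single-positive and 13.4, 130 and 10.4 in double-positive arrays. The groups did not overlap, and the log2 fold change was -3.21 (SE 0.64, adjusted p = 0.0273 in limma). The double-positive mean log2 signal of Dhh, 5.90, was under the filter level, so the filter favoured its fall. Without the filter the limma adjusted p was 0.0618. The Dhh call missed the threshold in 7 of 16 alternatives. The second Dhh probe set was dim, from 3.94 to 24.2, with overlapping groups, and was not tested. Ihh, the remaining ligand of the family, did not pass (0.54, SE 0.42, adjusted p = 0.686). Nerve and Schwann cell markers were read beside Dhh: 4 of 8 tested fell, 0 rose and 4 did not pass. Over all genes tested by their brightest probe set, 3.3% passed as lower. The median of the 8 was -2.26, and the summed signal of 9 was 12978 to 16261 in single-positive and 1591 to 2645 in double-positive arrays. Of these Mbp (myelin basic protein) had a log2 fold change of -4.80 and Erbb3, a neuregulin receptor and the brightest of the list, -4.33 (SE 0.42). Snap25 and L1cam also fell, with -4.18 and -2.16 (adjusted p = 0.00150 and 0.0149 in limma). The double-positive mean log2 signal of Snap25, 5.26, was under the filter level, so the filter favoured its fall. The Schwann cell markers Sox10 and S100b did not pass, with overlapping groups and log2 fold changes of 0.25 (SE 0.56, adjusted p = 0.918) and -0.40 (SE 0.52, adjusted p = 0.837). The part of these markers in the Dhh result was not tested.

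Scube3, from a family of secreted proteins that help release Hedgehog ligand, gave 276, 306 and 937 in single-positive and 1916, 4381 and 2934 in double-positive arrays. The groups did not overlap, and the log2 fold change was 2.68 (SE 0.50, adjusted p = 0.0222 in limma). It missed the threshold in 4 of 17 alternatives. Its relative Scube2 pointed the other way, with means of 1618 ± 583 and 317 ± 312 (SD, n = 3 each) and a log2 fold change of -2.58 (SE 0.61), and did not pass (adjusted p = 0.0598).

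Among 26 transduction genes 1 fell, 0 rose and 25 missed the threshold, and the median was 0.10. Prkacb, a catalytic subunit of protein kinase A, the kinase that restrains Gli factors, gave 9544, 7311 and 6694 against 4170, 3445 and 3495 (log2 fold change -1.07, SE 0.22, adjusted p = 0.0344 in limma). It missed the threshold in 9 of 17 alternatives, among them each fit without 1 array. The other Prkacb probe sets were dim, with overlapping groups, and were not tested. Ift88, a transport protein of the primary cilium, had -0.98 (SE 0.28, adjusted p = 0.111), and Prkar1a, the regulatory subunit of that kinase, had 0.48 (SE 0.16, adjusted p = 0.183). Gli3, the Gli factor known chiefly as a repressor, had -0.72 (SE 0.33, adjusted p = 0.392), and Sufu, which binds and holds Gli factors, had 0.18 (SE 0.22, adjusted p = 0.828).

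**Figure D3:**
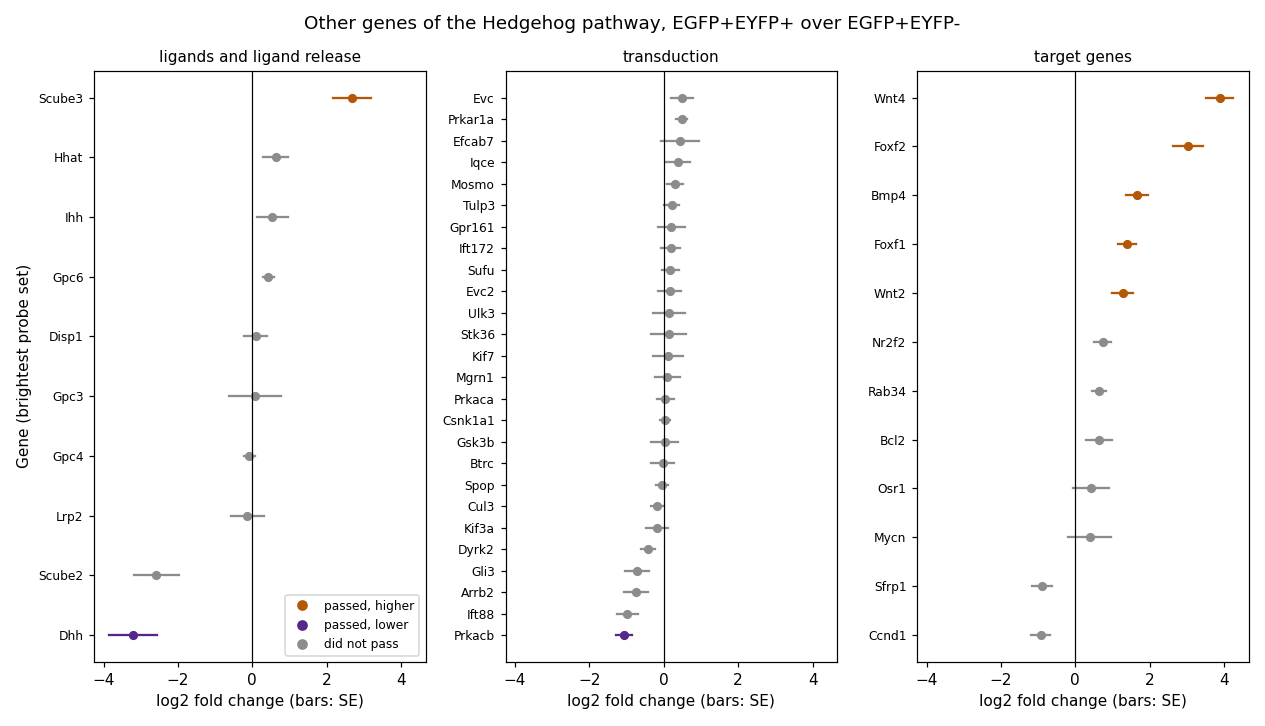
Log2 fold change, EGFP+EYFP+ over EGFP+EYFP-, of the 48 other pathway genes tested, in 3 lists, each by its brightest probe set, with bars of 1 SE. Wnt4 at 3.88 and Foxf2 at 3.02 lead the target genes, Scube3 and Dhh lie at opposite ends of the ligand list, and 25 of the 26 transduction genes did not pass.

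The genes whose pattern over the 6 arrays was most like that of Ptch1 were Tspan13 (a tetraspanin), Snai2 (a zinc finger repressor) and Fam149a, out of 12787 genes compared. The measure was the root mean square difference of log2 values after each gene's mean was subtracted, and it was 0.16, 0.18 and 0.18. Snai2 gave 6292, 9718 and 5827 in single-positive and 20839, 20129 and 25225 in double-positive arrays. The genes most like Shh were Mal (a membrane protein of myelin and epithelia), Bdh1 (a ketone body enzyme) and Sox17 (a transcription factor of endothelium), at 0.52, 0.58 and 0.61. Mal gave 2854, 3382 and 4687 against 145, 214 and 4.81. The distances to Shh were larger, and the 6 arrays fall into 2 groups, so these distances are descriptions and carry no test. The probe sets of Snai2 and Sox17 have the suffix _x, which marks sequence shared with other transcripts.

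Markers of further cell types differed between the same arrays. Over all 13464 genes tested by their brightest probe set, 1.43% passed as higher and 3.3% as lower. Of 15 leukocyte markers tested 14 fell, 0 rose, and the summed signal of 16 was 95047 to 134750 in single-positive and 12757 to 21447 in double-positive arrays. Mrc1, a macrophage receptor, had a log2 fold change of -2.96, Cd14 had -2.66 and Csf1r, the brightest, -2.68. Of 12 endothelium markers 6 fell and 0 rose, with sums of 40753 to 49181 and 7189 to 13053, and Lyve1 and Cdh5 had -3.30 and -2.41. Smooth muscle sums were 415700 to 515267 and 173624 to 226132, and Synm, an intermediate filament protein, had a log2 fold change of -4.54.

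Most fibroblast and stroma markers did not pass. Of 12 tested, 1 rose (Tcf21, a mesenchymal factor, 1.12, SE 0.18, adjusted p = 0.0111) and 11 did not pass, with sums of 487913 to 591311 in single-positive and 489434 to 692490 in double-positive arrays. Vim, the brightest, had 0.20 and Col1a1 had 0.39, neither past the threshold. Of 4 mesothelium markers 2 were tested and did not pass, with log2 fold changes of 0.22 for Wt1 and 0.12 for Upk3b, the brightest. All these levels are shares of an array scaled to a common mean, so a lower share of muscle, leukocyte or epithelial RNA and a higher share of Ptch1, Hhip and Gli1 were measured on the same arrays, and the part of the former in the latter was not tested.

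**Figure D4:**
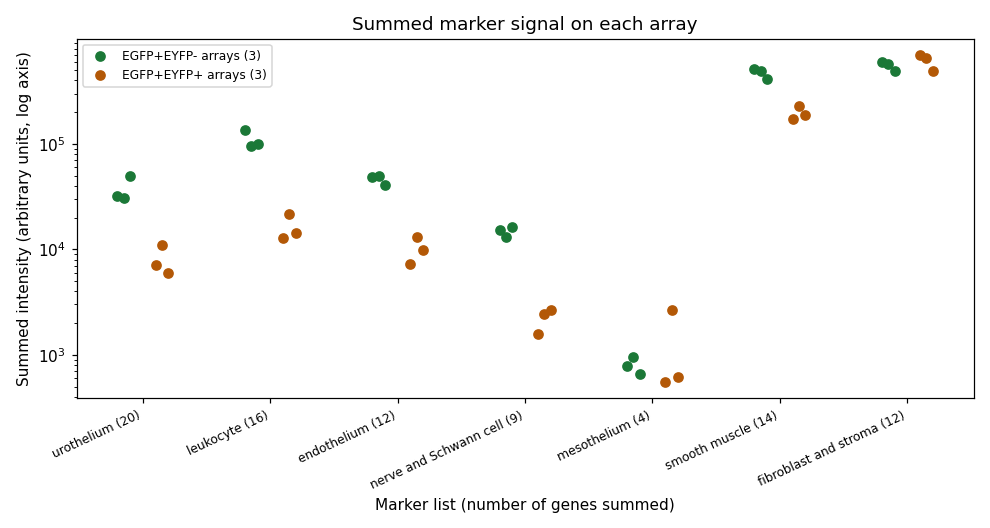
Summed signal intensity (arbitrary units, log axis) of 7 marker lists on each of the 3 EGFP+EYFP- and 3 EGFP+EYFP+ arrays. Urothelium, leukocyte, endothelium, nerve and smooth muscle sums lie lower on all 3 EGFP+EYFP+ arrays, while the mesothelium and fibroblast sums overlap.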

How the data were processed

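RNA of sorted bladder cells was amplified in 2 rounds and hybridised to Affymetrix MOE430 arrays, as stated per the labels' protocols. Amplification in 2 rounds favours the 3' end, so probe sets far from it can lose signal. The authors deposited 1 intensity per probe set on a linear scale. Per the submitters' processing notes GCOS was used. How it computed and scaled the signal is not given in the sources used here. All 6 arrays had the same 2% trimmed mean, 1500.01, so a common scaling was already applied. No detection calls were used.

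Of 45037 probe sets other than 64 controls, 34945 had 1 symbol in the platform annotation, 932 several and 9160 none. Entrez identifiers matched 34741 to RefSeq (GRCm38.p6) and 0 symbols changed. No genome build is named for the array values. Deposited intensities were converted to log2(signal + 25.042), the 20th percentile of all values, and arrays were not rescaled because medians differed 1.36-fold, under a limit of 1.5. Probe sets with a mean above 6.82 (40th percentile) were tested with limma 3.58.1 in R 4.3.3 (lmFit and eBayes, trend = TRUE). Tests were two-sided, p-values were adjusted by Benjamini-Hochberg over all 27022, and the threshold was 0.05. The procedure was tested on simulated data. The number of arrays limits the precision.

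Members and lists were chosen with earlier results of these data known. Named were every member probe set, pathway genes past the threshold and up to 3 of smallest p per list, the brightest and 2 of smallest p per marker list, and the 3 nearest genes to Ptch1 and Shh. Ihh, Gli3, Sufu, Ccnd1, Sfrp1, Rab34, Nr2f2, Sox10, S100b, Krt5, Upk1a and Elf3 were added after their values were seen. So were Upk3a, Upk1b, Cdh1, Krt19, Krt18, Krt7, Foxa1, Grhl3, Upk2, Snap25 and L1cam. Alternatives covered the offset, the filter, quantile normalization, median centring, array weights, the variance trend, a block for the replicate number, 1 probe set per gene and each array left out. A fit with the Actb ratio as covariate was added after seeing the data. The labels do not say that replicate numbers pair samples, so the main fit had no block. Same-numbered arrays of the groups correlated at 0.09, 0.03 and -0.07 in their deviations from group means. Arrays with unlike numbers correlated at -0.13 to 0.13. With 3 arrays per group these values cannot decide whether samples were paired. Identical values on a pair of arrays occurred for at most 13 probe sets.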

Additional observations from a re-analysis of the deposited data

How the results depend on the processing

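Of the 19 tested member probe sets, 18 kept their direction in every alternative run. The exception, Boc 1427516_a_at, had a log2 fold change of 0.01, which ranged from -0.11 to 0.17 when 1 array was left out and was negative in 4 of those 6 fits. The calls of Shh, Ptch1 and the 3 Hhip probe sets passed in every alternative in which they were tested.

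Of all probe sets 925 passed, 1639 with array weights and 414 to 1123 when 1 array was left out. The 5 member probe sets called higher numbered 4 to 6 when 1 array was left out, and 3 (1 each of Ptch1, Hhip and Gli1) when 1 probe set stood for a gene, since fewer probe sets are then tested. The 3 called lower numbered 1 with median centring or without a variance trend, and 1 to 3 when 1 array was left out. The cause was not tested. The 8 other pathway genes called numbered 5 without a filter, 2 without a variance trend and 2 to 6 when 1 array was left out. Of these, the 6 higher ones numbered 2 without a variance trend and 2 to 6 when 1 array was left out. The 2 lower ones numbered 0 without a filter or without a variance trend, 6 with array weights, 1 when all probe sets of a gene were averaged, and 0 to 2 when 1 array was left out. With the replicate block, 897 probe sets passed, 6 member probe sets were called higher and 4 lower, the additional ones being Hhip 1437933_at (adjusted p = 0.0252) and Cdon 1434957_at (adjusted p = 0.0342). The Actb covariate, chosen after seeing the data, also gave 6 higher, with Ptch1 1450824_at added (adjusted p = 0.0498), and 3 lower. Groups of 3 arrays were not tested for single outlying values. Dim probe sets have no detection call that would separate signal from background.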
